A study of Nannochloropsis oceanica with 18 samples.

Results

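The genes described here are the 100 nuclear genes whose transcript levels varied least across 18 RNA-seq libraries of Nannochloropsis oceanica, as candidate reference genes for comparing strains and light levels. They were chosen by measured values. From the 10333 nuclear genes, those with a mean of at least 20 TPM (a share of all transcripts of a library, corrected for gene length) were kept. The 100 with the highest means were set aside, which left 7896 genes, and of these the 100 with the lowest SD/mean of TPM over the 18 libraries were taken. The tables hold 10493 genes in all. Because the rule read every library, the steadiness of these genes in the same libraries is a description, and no test is attached to it.

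A reference gene is a transcript against which others are scaled, so that differences in the amount of RNA or in its reverse transcription cancel. Its use rests on the transcript being held at a steady share of the RNA in all the conditions compared, and in algae a change of light is a hard case, because photosynthesis, carbon storage and growth shift together. Several such genes are usually averaged, since the variation of a single transcript passes straight into every value divided by it. The files give nuclear genes by ID and do not pair the IDs with names. None of the 100 matched the gene names at hand, and 0 of 13 classical reference gene names (actin, tubulin, ubiquitin and the like) could be placed on a nuclear ID, so no function is stated for any of them.

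The alga, strain IMET1, is a single-celled marine species that accumulates oil. Polyadenylated RNA was sequenced from 6 groups of 3 flask cultures, which the labels call biological replicates. The labels give 3 genotypes: NO07G02030-ko (KO) and NO07G02030-oe (OE), named for a nuclear gene knocked out or overexpressed, and the wild type (WT). All were grown in flasks for 8 days, at high light (HL, about 300 µmol of photons per m2 and s) or at normal light (NL, about 50). The groups are HL_KO, HL_OE, HL_WT, NL_KO, NL_OE and NL_WT. How the KO and OE strains were made, and from how many clones, is not stated in the sources used here.

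Library totals ran from 14614662 to 18156737 counts. The mean TPM of NO07G02030 was 23.3 ± 3.69 in HL_KO, 26.5 ± 1.20 in HL_OE and 18.3 ± 5.78 in HL_WT, and 21.8 ± 9.83 in NL_KO, 27.6 ± 1.72 in NL_OE and 29.1 ± 3.11 in NL_WT (SD, n = 3 each). In its 18 single libraries the TPM was 26.8, 23.8 and 19.4 in HL_KO, 27.7, 26.4 and 25.4 in HL_OE, 11.7, 21.0 and 22.2 in HL_WT, 32.9, 14.5 and 17.8 in NL_KO, 26.2, 27.2 and 29.5 in NL_OE, and 26.1, 29.0 and 32.3 in NL_WT. It was called in neither KO nor OE against WT at either light level (edgeR's adjusted p from 0.155 to 0.554), although without NL_KO replicate 1 it was called lower in NL_KO than in NL_WT (log2 fold change -0.72). Its transcript level thus does not mark the strains, and KO and OE below mean the libraries so labelled. HL_KO replicate 2, HL_WT replicate 1 and NL_KO replicate 2 stood apart: over the other 7796 genes in the TPM range, the SD across genes of the log2 deviation from each gene's mean was 0.92, 0.71 and 0.69, against 0.32 to 0.57 in the other 15 libraries. Main results are given below without HL_KO replicate 2 and HL_WT replicate 1 together. NL_KO replicate 2 was left out only on its own: 83 of the 100 genes were then chosen again, and the all-gene count in HL_KO against NL_KO was 145 in place of 282.

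The 100 genes had SD/mean values of 4.98% to 9.52%, with a median of 8.67%, where the median of the other genes in the range was 25.1%. The last genes inside the limit were NO05G01840 at 9.47%, NO09G03880 at 9.49% and NO22G00550 at 9.52%, and the first outside were NO02G00120 at 9.60%, NO15G02800 at 9.61% and NO16G01580 at 9.61%. The limit therefore falls in a continuous run of values, with no gap. Mean levels of the 100 ran from 25.2 to 445 TPM with a median of 78.4 TPM, against 60.9 TPM over the whole range. When the range was divided by level into 5 equal classes, the lowest class held 8 of the 100 and the others 19, 21, 33 and 19 in rising order of level. None of the 100 highest genes was as steady: 0 of them lay under the limit, and their median SD/mean was 32.6%. Of 2242 expressed genes under 20 TPM, 3 lay under it.

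**Figure D1:**
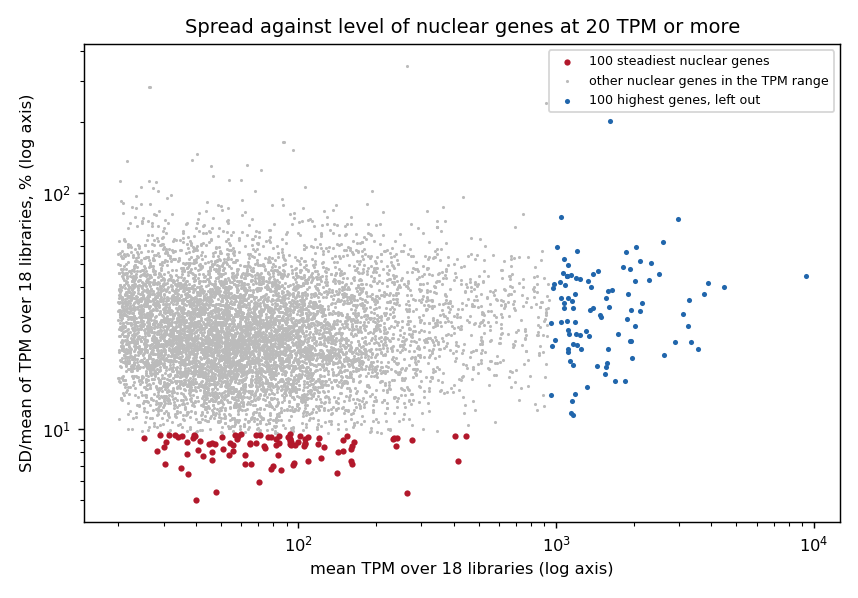
SD/mean of TPM (%, log axis) against mean TPM (log axis) over 18 libraries, 1 point per nuclear gene at 20 TPM or more. The 100 steadiest genes lie between 4.98% and 9.52% and at 25.2 to 445 TPM, under a cloud with a median of 25.1%, and the 100 highest genes that were left out all lie above them.

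The steadiest gene, NO03G01390, averaged 40.0 ± 1.99 TPM over the 18 libraries (SD/mean 4.98%). NO03G01390 had TPM of 40.6, 42.6 and 40.7 in HL_KO, 41.0, 39.6 and 38.9 in HL_OE and 38.0, 41.8 and 42.0 in HL_WT. At normal light the same gene had 41.4, 39.4 and 38.7 TPM in NL_KO, 40.0, 39.1 and 41.8 in NL_OE and 34.5, 38.3 and 42.2 in NL_WT. All 6 groups overlapped, and the lowest of the 18 values was that of NL_WT replicate 1. NO01G02670, the most abundant of the 10 steadiest, had 299, 277 and 253 TPM in HL_KO, 259.8, 242 and 255 in HL_OE, 252, 268 and 272 in HL_WT, 264, 263 and 280.0 in NL_KO, 252, 251 and 252 in NL_OE and 264, 282 and 258 in NL_WT. Its SD/mean was 5.36%, with HL_KO replicate 1 highest and HL_OE replicate 2 lowest. NO03G03990, next in order, had 50.4, 53.1 and 45.5 TPM in HL_KO, 48.7, 49.1 and 47.8 in HL_OE, 42.9, 46.8 and 44.3 in HL_WT, 51.8, 46.1 and 49.1 in NL_KO, 46.6, 46.1 and 50.5 in NL_OE and 46.7, 49.0 and 48.3 in NL_WT. Its group mean was lowest in HL_WT, whose 3 libraries lay below the 3 of HL_OE and overlapped with those of HL_KO and NL_WT. Its SD/mean was 5.42%.

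NO12G02160, with an SD/mean of 5.94%, stood at 70.2, 72.3 and 73.4 TPM in HL_KO, 69.1, 62.0 and 66.6 in HL_OE, 81.0, 74.0 and 71.5 in HL_WT, 68.1, 73.4 and 71.1 in NL_KO, 67.7, 66.5 and 64.9 in NL_OE and 71.1, 70.2 and 68.7 in NL_WT. Here the 3 HL_OE libraries lay below the 3 HL_WT libraries, with HL_WT replicate 1 the highest of all 18. NO10G01940, with an SD/mean of 6.67%, stood at 83.3, 76.9 and 81.7 TPM in HL_KO, 86.5, 87.8 and 95.6 in HL_OE, 79.4, 87.6 and 89.1 in HL_WT, 90.8, 76.7 and 79.2 in NL_KO, 89.2, 92.2 and 90.3 in NL_OE and 81.3, 87.0 and 93.2 in NL_WT. Its HL_KO libraries lay below its HL_OE libraries. The other 5 of the 10 steadiest were NO22G00630 (37.3 ± 2.41 TPM), NO10G01960 (141 ± 9.20), NO03G04130 (78.3 ± 5.28), NO10G01930 (34.9 ± 2.39) and NO20G01220 (79.5 ± 5.52; mean ± SD, n = 18). Their SD/mean ran from 6.46% to 6.95%. In NO10G01930 the 6 group means lay within a ratio of 1.04, the narrowest of all 100, while single HL_KO libraries ran from 31.6 to 41.1 TPM. NO03G04130 had 75.2, 68.8 and 73.1 TPM in HL_KO, 73.7, 77.2 and 77.9 in HL_OE, 81.6, 86.1 and 85.8 in HL_WT, 78.7, 73.7 and 84.2 in NL_KO, 81.6, 81.6 and 81.3 in NL_OE and 68.3, 78.7 and 81.7 in NL_WT. Its 3 HL_WT libraries lay above its 3 HL_OE and its 3 HL_KO libraries.

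**Figure D2:**
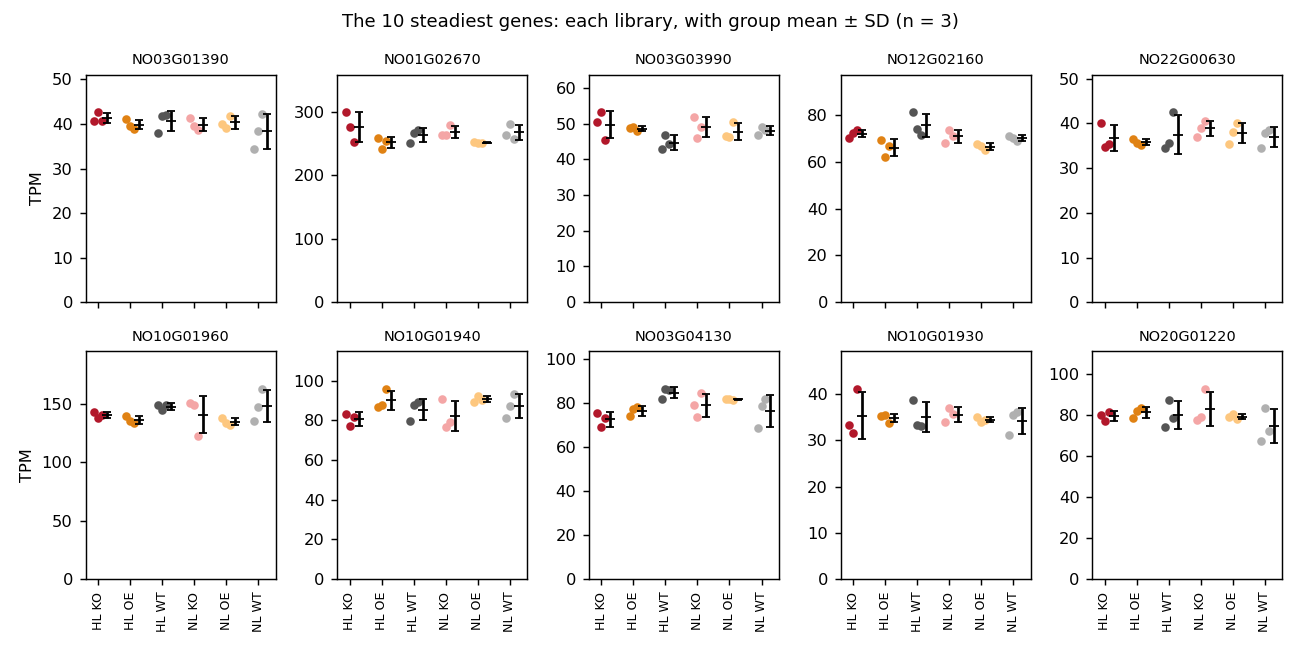
TPM of the 10 steadiest genes in each of the 18 libraries (points), with the mean and SD of each group of 3 (bars), on axes that start at 0. In NO03G01390 the libraries run from 34.5 to 42.6 TPM, and in NO01G02670 from 242 to 299 TPM.

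Among the most abundant of the 100, NO24G00360 averaged 445 ± 41.4 TPM, NO06G00940 417 ± 30.5 TPM and NO14G01250 406 ± 37.8 TPM (SD, n = 18). NO24G00360 had 511, 495 and 478 TPM in HL_OE against 413, 405 and 389 in NL_OE. The HL_KO libraries had 458, 501 and 449 TPM against 453, 380.1 and 385 in NL_KO, and the HL_WT libraries 484, 452 and 464 against 397, 446 and 454 in NL_WT. The light levels did not overlap in OE, and overlapped in KO and in WT. Its SD/mean was 9.31%. NO06G00940 had its highest group mean in HL_WT (456 ± 30.2) and its lowest in HL_OE (394 ± 22.7). NO14G01250 ran from 328 in NL_WT replicate 1 to 501 in HL_KO replicate 2. At the low end were NO18G02120 (25.2 ± 2.31 TPM), NO02G04140 (28.3 ± 2.28) and NO16G03170 (29.0 ± 2.73). NO18G02120 had a mean of 318 counts, for which counting error alone is 5.60% of the mean, the largest counting error among the 100, beside an SD/mean of 9.17%.

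Within the limit the 6 groups could still be ordered in some genes. The widest ratio of highest to lowest group mean was 1.28, in NO09G03460, with 63.1 ± 0.243 TPM in HL_OE and 49.4 ± 4.37 in HL_WT (SD, n = 3 each). Its libraries had 63.3, 62.8 and 63.1 TPM in HL_OE against 44.4, 51.3 and 52.5 in HL_WT, which did not overlap. NO22G00550 followed with 105.4 ± 3.49 TPM in NL_OE and 83.4 ± 5.30 in HL_KO, and NO01G03280 with 73.9 ± 2.48 in NL_OE and 58.6 ± 3.67 in NL_WT. At the other end, NO10G01930, NO02G01440 and NO03G01390 had group means within ratios of 1.04, 1.08 and 1.08. Over all 100 the median ratio was 1.17, and over the other genes in the range it was 1.69. Between single libraries, the ratio of highest to lowest TPM ran from 1.23 to 1.55 in the 100, with a median of 1.38, against a median of 2.57 in the other genes.

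Both parts of the variation were small in the 100 genes, which follows from a rule that chose them by the total. The pooled SD within groups was 7.26% of the mean (median gene), against 17.8% in the other genes of the range, and the SD of the 6 group means was 5.74% against 20.2%. In a split of the sum of squares of log2 TPM, the median gene of the 100 had 22.0% between strains, 3.13% between light levels, 9.20% in their interaction and 58.6% among replicates. The other genes had 34.2%, 5.59%, 7.98% and 39.8% in the same order. Within groups, the median SD/mean of the 100 was 4.45% in HL_OE and 3.46% in NL_OE, against 6.25% in HL_WT and 6.75% in NL_WT. In KO it was 7.57% at high light and 7.63% at normal light. The other genes were tighter in the OE groups as well, at 5.83% in HL_OE and 5.10% in NL_OE, against 18.5% in HL_WT and 11.6% in NL_WT. In KO they had 24.2% at high light and 19.2% at normal light. The 100 genes and the other genes thus differed least in spread between replicates in the OE groups and most in HL_KO.

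The residual variation was not spread evenly over the libraries. NL_WT replicate 1 held the lowest value of 30 of the 100 genes, NL_KO replicate 2 of 16 and HL_KO replicate 2 of 13. HL_KO replicate 2 and HL_WT replicate 1 each held the highest value of 15. The mean log2 deviation of the 100 from their own means was -0.11 in NL_WT replicate 1 and -0.05 in NL_KO replicate 2, and lay between -0.02 and 0.03 in the other 16 libraries. The scatter of the 100 around that mean was widest in HL_KO replicate 2 (SD 0.17, log2) and HL_WT replicate 1 (0.16) and narrowest in NL_OE replicate 3 (0.09). The next widest were NL_KO replicate 2 (0.14) and NL_WT replicate 1 (0.13). So the common offset was largest in NL_WT replicate 1, which also had some scatter. Gene by gene departures were largest in HL_KO replicate 2 and HL_WT replicate 1. Without NL_WT replicate 1 the median SD/mean of the same 100 genes was 8.23%. When HL_KO replicate 2 was left out of the choice, 50 of the 100 genes were chosen again. With any other single library left out, 77 to 98 were kept. Without both HL_KO replicate 2 and HL_WT replicate 1, 47 were.

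**Figure D3:**
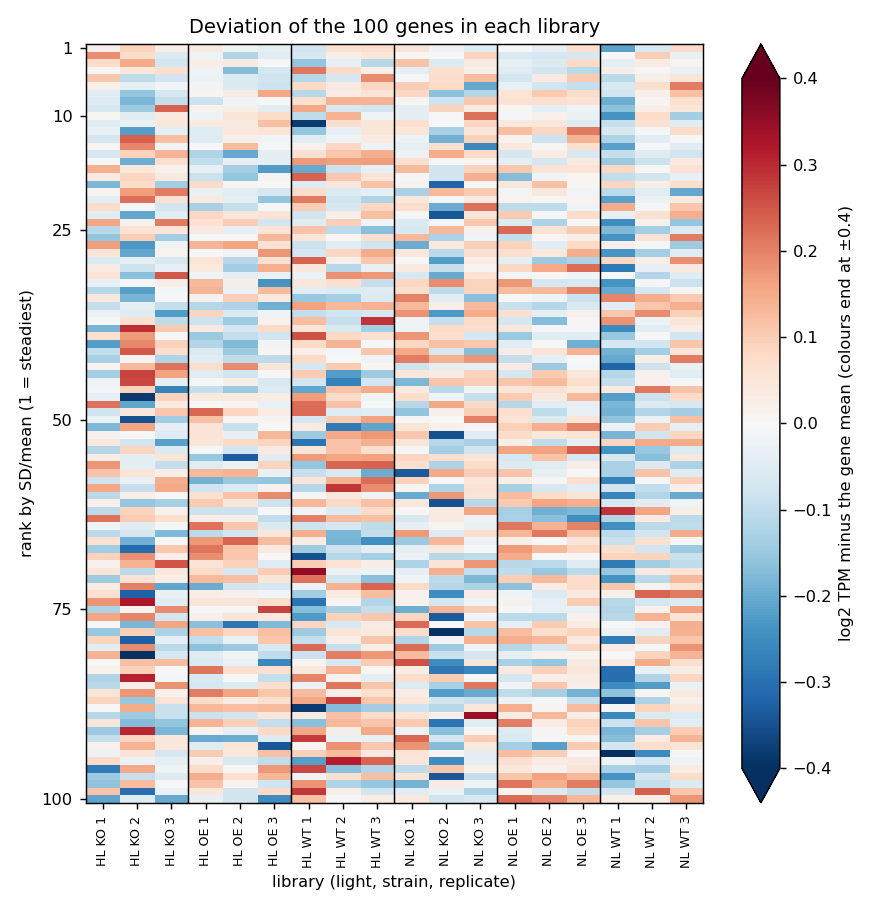
Log2 TPM minus the gene's own mean for the 100 genes (rows, steadiest at the top) in the 18 libraries (columns, in groups of 3), with colours that end at ±0.4. The narrowest column is NL_OE replicate 3 (SD 0.09), the mostly blue column is NL_WT replicate 1 (mean deviation -0.11), and the most mixed column is HL_KO replicate 2 (SD 0.17).

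The deviations that remained were partly shared by replicates. Over the 100 genes, the deviations of HL_OE replicates 1 and 2 correlated at 0.74, those of HL_WT replicates 2 and 3 at 0.70, and the 3 pairs of NL_OE replicates at 0.56 to 0.63. HL_OE replicate 3 had 0.33 and 0.30 with replicates 1 and 2, and the 3 pairs of NL_WT replicates had 0.23 to 0.55. The 3 pairs of HL_KO replicates had -0.23 to 0.06, and HL_WT replicate 1 had -0.05 and -0.08 with replicates 2 and 3. In NL_KO, replicate 1 had -0.37 and -0.14 with replicates 2 and 3, which had 0.26 with each other. Between groups, HL_OE replicate 1 had 0.52 with NL_OE replicate 1, and NL_KO replicate 1 had 0.49 with NL_WT replicate 3. All other pairs from different groups had 0.36 or less. These are correlations across genes, which are not independent, and each gene's deviations add up to 0 over the 18 libraries. Replicates deviated together in OE and in part of WT, and did not in HL_KO or, apart from replicates 2 and 3, in NL_KO.

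Properties that the rule did not use were then compared. Gene length, taken from the ratio of counts to TPM, was longer in the 100: their median was 1.58 times the median of the range, and 72 of 100 were longer than it, against 49.7% of the other genes. The mean count was also larger, with a median of 1820 per library against 1001, so the median counting error was 2.34% of the mean against 3.16%. Counting error made up a median of 7.42% of the variance of the 100. Among 1081 other genes within the interquartile range of length and count of the 100, the median SD/mean was 21.9%, against 25.1% in all other genes. All counts were whole numbers in 89 of the 100 and in 93.0% of the others. A fraction marks reads divided between genes, so the 11 remaining genes, NO12G02160 among them, may share reads with another gene. None of the 100 had another ID within 5% of its TPM in all 18 libraries.

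The IDs come in 30 numbered series, and the 100 genes fell into 27 of them. Of the 100, 11 had another of the 100 within 5 IDs, and 9.89% of the other genes had one of them as near. Of the 10 steadiest, 3 lay close together: NO10G01930, NO10G01940 and NO10G01960, with mean levels of 34.9, 86.0 and 141 TPM. Their deviations over the 18 libraries had a mean correlation with each other of -0.02 to 0.16, which is near 0 for neighbours in ID order. Whether neighbouring IDs overlap on the genome, and whether the counts use strand, is not stated in the sources used here.

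The values that bear on use in other samples are those from libraries that a choice did not use. The same rule was applied to a part of the libraries, and the genes so chosen were measured in the rest. The 100 genes chosen in the 9 high light libraries had a median SD/mean of 6.68% there and of 10.8% at normal light, against 21.0% for the other genes in their range. Those chosen in the 9 normal light libraries had 5.93% there and 13.7% at high light, against 26.2%. Of the 100 genes chosen at high light 97 lay below the median spread of the range at normal light, and of those chosen at normal light 94 did so at high light. Only 10 were chosen in both. Without HL_KO replicate 2 and HL_WT replicate 1 the value at high light for genes chosen at normal light was 9.11%. The 26.2% of the other genes includes both libraries, and was not computed without them. An SD/mean within 1 light level does not show a shift of the mean between light levels. For genes chosen at high light that shift had a median of 0.08 (log2, either direction), against 0.16 for the other genes, and reached 0.41. For genes chosen at normal light it was 0.11 against 0.16, and reached 0.52.

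The choices made in single strains were compared in the same way. Genes chosen in the 6 KO libraries had a median SD/mean of 6.19% there and 11.9% in OE and WT, against 20.7% for the other genes. Genes chosen in the 6 WT libraries had 4.87% and, in KO and OE, 15.6%, against 24.8%. Genes chosen in the 6 OE libraries had 1.92% there and 20.01% in KO and WT, against 24.5%. Without HL_KO replicate 2 and HL_WT replicate 1 the values elsewhere were 12.8% for genes chosen in KO, 15.9% for OE and 17.5% for WT. Without HL_WT replicate 1 alone they were 11.5%, 18.9% and 19.6%, so the order of OE and WT rests on that library. For the other genes, no value was computed without these libraries. The mean TPM of the genes chosen in OE differed in the other strains from that in OE by a median of 0.32 on the log2 scale, which is close to the 0.36 of the other genes. For genes chosen in KO the shift was 0.10 against 0.25, and for genes chosen in WT 0.11 against 0.15. The difference between these choices was not tested, since genes of the same libraries are no replicates. Of the 100 genes of the full rule, 38 were also chosen in KO, 14 in WT and 5 in OE, and 1, NO01G02670, in all 3 strains. Of the 100, 8 were chosen at each light level alone: NO03G01390, NO01G02670, NO03G03990, NO12G02160, NO22G00630, NO03G04130, NO06G00940 and NO26G01280.

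**Figure D4:**
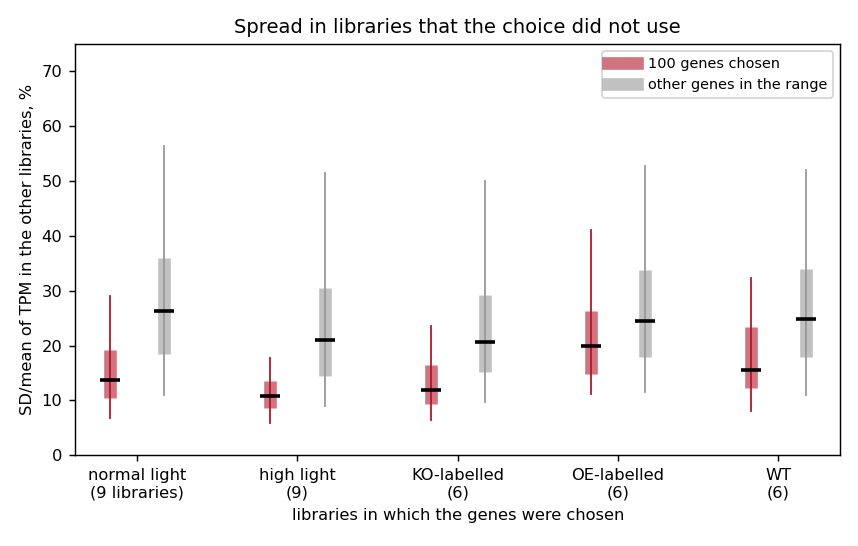
SD/mean of TPM (%) in the libraries that a choice did not use, for the 100 genes chosen (red) and the other genes in the range (grey), by the libraries in which they were chosen. Black dashes are medians, thick bars span the quartiles and thin lines run from the 5th to the 95th percentile. Medians of the chosen genes are 13.7% and 10.8% for choices made at normal and at high light, and 11.9%, 20.01% and 15.6% for choices made in KO, OE and WT.

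Each strain was next set against WT at each light level, and high against normal light in each strain, with edgeR on the counts after TMM scaling and Benjamini-Hochberg adjustment over the 9912 genes tested. TMM scaling sets each library so that most genes do not change on average. The comparisons share control libraries, and the rule used every one of them, so the counts below are printed beside the share of all genes called and nothing is read from them. In HL_KO against HL_WT 0 of the 100 were called, where 3.63% of all genes were, and in NL_KO against NL_WT also 0, where 0.131% were. At an unadjusted p under 0.05 edgeR had 4 and 2 of the 100 in these comparisons, where it had 20.3% and 12.1% of all genes. These shares rest on single libraries: the 360 genes called in HL_KO against HL_WT were 17 without HL_WT replicate 2 and 708 without HL_KO replicate 1, and the 13 in NL_KO against NL_WT were 689 without NL_KO replicate 1. DESeq2 called 0 of the 100 in both, where it called 8.17% and 0.386% of all genes. In HL_OE against HL_WT 11 were called (32.1% of all genes), all 11 lower, where 15.1% of all genes were lower and 17% higher. Without 1 of the 3 HL_OE replicates the count was 2 or 3, where 20.6% to 24.2% of all genes were called. It was 5 without HL_WT replicate 1 (25.6%) and 23 without HL_KO replicate 2 (42.2%), which is in neither group. In NL_OE against NL_WT 3 were called (22.3%), all 3 lower, where 10.9% were lower and 11.4% higher. This count was 0 or 1 without any 1 of the OE or NL_WT libraries, where 10.9% to 21.5% of all genes were called. It was 5 without HL_WT replicate 1 (27.2%) and 7 without HL_KO replicate 2 (31%). High light against normal light gave 0 of 100 in KO (2.85% of all genes), 0 in OE (0.333%) and 1 in WT (13.3%), which was higher at high light (4.73% of all genes were). For KO and OE the unadjusted counts were 3 and 1 (22.2% and 6.55% of all genes), and DESeq2 called 1 and 0 (8.48% and 1.38% of all genes).

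The differences themselves were small in every comparison, which follows from a choice by low SD/mean over the same libraries. In TPM, the median log2 ratio of the 100 lay between -0.04 (HL_KO against HL_WT) and 0.07 (HL_WT against NL_WT), and the single ratios between -0.33 and 0.35, both of these in HL_OE against HL_WT. In the edgeR fit 0 of the 100 differed by 2-fold in any comparison, where 15.2% of all genes did in HL_OE against HL_WT and 1.54% in HL_OE against NL_OE. Counted in TPM, groups of 3 did not overlap in 35 of the 100 for HL_OE against HL_WT, in 33 for NL_OE against NL_WT, in 17 for HL_KO against HL_WT and in 9 for NL_KO against NL_WT. The shares over the whole TPM range were 58.2%, 60.1%, 15.6% and 13.5%. For high against normal light the counts were 30 in OE, 23 in WT and 9 in KO, where the range had 41.7%, 34.6% and 14.4%.

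The largest called difference in HL_OE against HL_WT was that of NO05G02280, with 26.8, 27.4 and 27.3 TPM in HL_OE against 31.6, 33.6 and 35.6 in HL_WT (log2 fold change -0.48, SE 0.11, edgeR). In NL_OE against NL_WT it was that of NO05G01970, with 90.2, 86.6 and 87.4 TPM in NL_OE against 121, 110.3 and 100.4 in NL_WT (-0.45, SE 0.15). Without NL_WT replicate 1 the value of NO05G01970 was -0.32 and no longer called. NO02G03230 was the only gene called in more than 1 comparison and the only one called for light: 39.2, 42.6 and 38.0 TPM in HL_WT against 27.5, 32.3 and 35.7 in NL_WT (0.34, SE 0.11), and 37.0, 35.9 and 36.7 in HL_OE against HL_WT (-0.31, SE 0.11). Its call for light was lost under 8 of 10 changes of scaling, filter, tool or model, and without HL_WT replicate 1, and its call in HL_OE against HL_WT under 5 of the 10. NO12G02160 and NO03G04130, among the 10 steadiest, were called lower in HL_OE than in HL_WT (-0.39, SE 0.14, and -0.32, SE 0.11). Neither call held when libraries were scaled on the 100 genes (-0.21 and -0.15) or without HL_WT replicate 1 (-0.25 and -0.27). The scaling is no independent check, since both genes are among the 100 that it centres. In all, 14 of the 100 were called in at least 1 comparison, where 46.2% of all genes were, and 86 in none.

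These calls depended on the scale. Taken as CPM (the share of counts, with no correction for length) with TMM factors in place of TPM, the same 100 genes had a median SD/mean of 11.6%, and with RLE factors 11.4%, against 8.67% in TPM and 8.95% in CPM with no factor. Choosing the 100 steadiest on the TMM scale kept 20 of them, and with no factor 69. The genes named next were chosen after these values were seen. NO10G01940 ranked first of the 7896 genes on the TMM scale, with an SD/mean of 4.14%, and NO03G04850 second, with 5.31%. In TPM they ranked 7 and 12. NO03G01390 had 9.04% on the TMM scale (rank 88), NO03G04130 8.99% (rank 86), NO01G02670 10.7% (rank 250) and NO12G02160 14.6% (rank 937).

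The 2 scales parted by library. A scaling factor made from the 100 genes was 1.18 times the TMM factor in HL_WT replicate 1 and 1.16 times in HL_KO replicate 2, and 1.10 times in both NL_KO replicates 2 and 3. In OE it was 0.908 to 0.931 times the TMM factor in HL_OE and 0.943 to 0.953 times in NL_OE, so all 6 OE libraries lay on 1 side. The share of all TPM held by the 100 highest nuclear genes was also lower in OE: 15.2% to 15.5% in HL_OE and 14.9% to 15.2% in NL_OE. In KO the range was 17.01% to 19.4% at high light and 17.3% to 20.2% at normal light, and in WT it was 17.4% to 19.6% at high light and 16.9% to 18.5% at normal light. By library the share and the factors did not always go together: HL_KO replicate 2, at 1.16 times, had a share of 17.6%, against 17.4% and 17.5% in HL_WT replicates 2 and 3, at 0.954 and 0.974 times. The part of this share in the result was not tested. TPM is a share of the RNA in a culture, so a change in RNA per cell and a change in cell number cannot be told apart, and neither scale shows which genes are steady per cell.

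**Figure D5:**
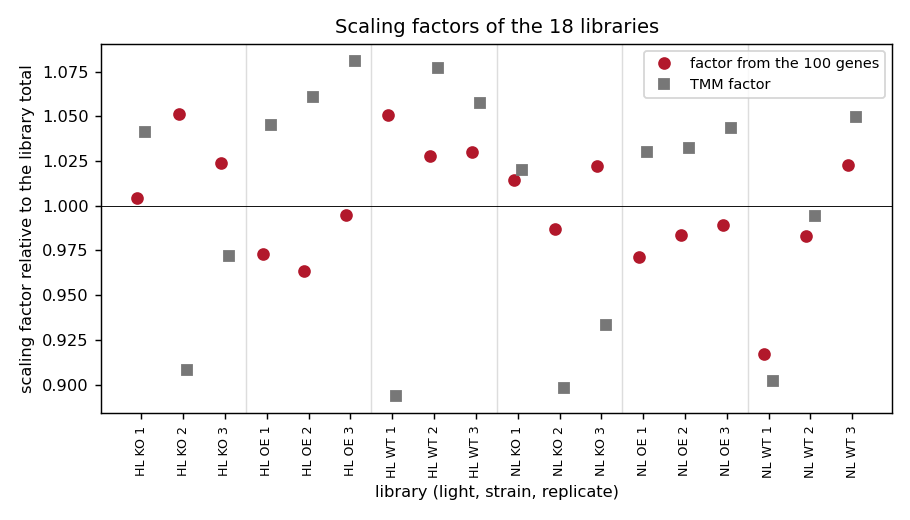
Scaling factor of each of the 18 libraries relative to its total count, from the 100 genes (red circles) and from TMM (grey squares). The factor from the 100 genes is higher in HL_WT replicate 1 (1.18 times) and HL_KO replicate 2 (1.16 times), and lower in all 6 OE libraries (0.908 to 0.953 times).

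With the factor from the 100 genes in place of TMM, the share of calls that were higher moved by over 5 percentage points in 3 of the 7 comparisons. In HL_OE against HL_WT 3128 of 9912 genes were called in place of 3184, with 2665 in both lists, and 67.7% of the calls were higher in place of 52.9%. In NL_OE against NL_WT 2200 were called in place of 2215, with 1921 in both, and 58.2% were higher in place of 51.0%. The median log2 fold change of all genes was 0.18 in place of 0.02 in HL_OE against HL_WT, and -0.10 in place of -0.01 in NL_KO against NL_WT. For HL_KO against HL_WT 378 were called in place of 360, 89.9% of them higher in place of 89.4%. HL_KO against NL_KO gave 313 in place of 282, 70.0% of them higher in place of 62.1%, and HL_WT against NL_WT 1442 in place of 1323, 35.0% higher in place of 35.4%. HL_OE against NL_OE gave 24 in place of 33, with 16 in both and 33.3% higher each time, and NL_KO against NL_WT 13 each time, with 12 in both and 46.2% higher. Of the 100 genes, 3 were then called in HL_OE against HL_WT (1 higher and 2 lower, where 31.6% of all genes were called), 2 in NL_OE against NL_WT (1 higher and 1 lower, 22.2%) and 1, lower, in HL_WT against NL_WT (14.5%). In HL_KO against HL_WT (3.81%), NL_KO against NL_WT (0.131%), HL_KO against NL_KO (3.16%) and HL_OE against NL_OE (0.242%) 0 were called. All of these factors were made from the libraries they scale.

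Averages of several genes varied less than a single gene in these same libraries. The geometric mean of the 3 steadiest varied with an SD of 0.05 (log2) over the 18 libraries and a ratio of highest to lowest of 1.15, and that of the 10 steadiest with 0.04 and 1.11. For NO03G01390 alone the SD was 0.07 and the ratio 1.23. All 100 together gave an SD of 0.03 and a ratio of 1.10, no better than the 20 steadiest (0.03 and 1.10), and NL_WT replicate 1 was the lowest library with 1, 2, 5, 10, 20, 50 and 100 genes. By the pairwise measure used for reference genes in quantitative PCR (the SD over libraries of the log2 ratio to every other member, averaged) the values ran from 0.13 to 0.19 with a median of 0.17. NO03G01390 was lowest at 0.13, followed by NO03G04130 at 0.14 and NO03G03990 at 0.14. A ratio within a library does not depend on how libraries are scaled, so this order is the same on the TPM scale and on any other scaling of TPM.

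As an example of use, NO07G02030 was scaled on the geometric mean of the 10 steadiest genes. It then averaged 23.4 ± 3.52 TPM in HL_KO, 26.8 ± 1.16 in HL_OE and 17.96 ± 5.41 in HL_WT, and 21.5 ± 9.58 in NL_KO, 27.7 ± 1.51 in NL_OE and 29.3 ± 1.87 in NL_WT (SD, n = 3 each). The SD in NL_WT was thus 1.87 TPM, in place of 3.11 TPM unscaled, and that of NL_KO 9.58, in place of 9.83. Scaled on all 100 genes, the SD was 3.79 in HL_KO, in place of 3.69, and lower than unscaled in every other group. The genes were chosen for low spread in these same libraries, so these changes do not measure a gain in other samples. HL_WT against NL_WT gave a log2 fold change of -0.70 with TMM scaling (SE 0.22, edgeR's adjusted p = 0.0453). With the factor from the 100 genes it was -0.72 and not called (SE 0.26, edgeR's adjusted p = 0.0754). The call was lost under 6 of 10 changes of scaling, filter, tool or model. The SD over libraries of NO07G02030 was 23.5% of its mean, rank 3542 of the 7896 genes, so this transcript was about as variable as the median gene of the range. Of 11 other ways of choosing (another measure of spread, another scale, or a part of the libraries), 10 chose NO01G02670 as well, and 9 each chose NO03G01390, NO03G03990, NO03G04130 and NO03G04850. All 5 were chosen again whichever single library was left out. These choices reuse the same libraries, and several restate the spread of TPM that the rule used, so their overlap is partly built in. The choice on CPM with TMM factors took neither NO01G02670 nor NO03G03990.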

How the data were processed

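RNA-seq of 18 libraries was deposited as 2 tables. The authors deposited expected counts, which are estimated reads per gene with no normalization, at least 96.3% of them whole numbers in each library, and were rounded before testing. The TPM values deposited by the authors are scaled for gene length and sum to 1000000 in each library. Trim Galore, STAR, Picard and Salmon were used, per the submitters' processing notes. Versions, order of use, genome build and annotation are not stated in the sources used here. The RefSeq table at hand holds 160 organelle genes and 0 nuclear IDs, so no sequence of the 100 genes is printed.

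SD/mean used the sample SD (n = 18). Counts (totals 14614662 to 18156737) were tested with edgeR 4.0.16 (R 4.3.3, TMM, filterByExpr, robust quasi-likelihood F test) on 6 groups of 3 without covariates, and a gene was called at a Benjamini-Hochberg adjusted p below 0.05. SE is the log2 fold change over the root of F. Counting error is 100% over the root of the mean count, a lower limit, since reads carry no molecular identifiers. Relative length is the median over libraries of count per total per TPM, divided by the median of the range. The factor from the 100 genes is the geometric mean of their counts. Alternatives used DESeq2 1.42.0, limma 3.58.1 on log2(TPM + 1) and log2(TPM + 0.1), RLE, other filters, a replicate block, the compared groups only and each library left out. The fits and choices without the pair HL_KO replicate 2 and HL_WT replicate 1, CPM with no factor, and the effect of other scales, choices and left-out libraries on SD/mean, carried-over spread, factors, length and pairwise SD were added after seeing the data.

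The 100 genes and the tests were chosen with earlier results of these data known. Genes were named by rule: NO07G02030, the 10 steadiest, 3 each just inside and outside the limit, 3 each at the ends of level and of group-mean ratio, the 3 steadiest by pairwise ratio, the largest called rise and fall per comparison, and up to 3 called without overlap in the most comparisons. Both calculations, the choice and the count test, were tested on simulated data. For the choice, the simulated steady genes were set well apart from the rest, unlike in these data. That run therefore checks the calculation and not where the limit falls. Whether replicates were separate cultures is taken from the labels.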

Additional observations from a re-analysis of the deposited data

Results flagged for a closer look

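NO01G03280 was the only one of the named genes in which the light levels did not overlap in OE or in WT and lay in opposite order. It had 64.7, 61.6 and 66.6 TPM in HL_OE against 72.4, 72.5 and 76.8 in NL_OE, a log2 ratio of means of -0.20. In WT it had 67.2, 70.2 and 68.1 TPM in HL_WT against 55.0, 58.4 and 62.3 in NL_WT, a log2 ratio of 0.23. The difference between the strains was not tested. NL_WT replicate 1, in which the 100 genes as a whole were low by -0.11 (log2), was the lowest of its 18 libraries.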

How the results depend on the processing

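The choice of the 100 genes depended on the scale and on the libraries. Of the 100, 20 were chosen again from CPM with TMM factors and 20 with RLE factors, 31 by the median absolute deviation over the median, 47 by the group means alone and 29 by the spread within groups alone. From a part of the libraries 30 were chosen at normal light, 44 at high light, 38 in KO, 5 in OE, 14 in WT, 47 without HL_KO replicate 2 and HL_WT replicate 1, and 50 to 98 with 1 library left out. The median SD/mean was 11.6% with TMM and 11.4% with RLE factors. Without HL_KO replicate 2 and HL_WT replicate 1, the spread carried over from normal light was 9.11% (13.7% with them) and from OE 15.9% (20.01%), the SD of the log2 ratio of the 2 factors 0.0826 (0.11) and the pairwise SD 0.15 (0.17). The median relative length was 1.36 when chosen by group means (1.58). With 1 library left out, the spread carried over from normal light ran from 10.1% to 14.9% and that from OE from 17.6% to 20.8%, and the SD of the ratio of factors from 0.0988 to 0.116. These alternatives use fewer libraries or another scale by construction.

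Members called in HL_OE against HL_WT numbered 11, where 32.1% of all genes were called. With the share of all genes under the same setting, they were 3 when scaled on the 100 genes (31.6%), 22 with DESeq2 (35.8%), 3, 4 and 5 with limma on log2(TPM + 1), log2(TPM + 0.1) and without a filter (30.7%, 29.9% and 29.3%), 2 without HL_OE replicate 2 (20.6%) and 23 without HL_KO replicate 2 (42.2%), the ends of the range with 1 library left out. The 3 in NL_OE against NL_WT (22.3%) became 7 with DESeq2 (26.6%), 1 with the replicate block (18.6%), 19 in the compared groups only (52.1%), 12 without HL_KO replicate 2 and HL_WT replicate 1 (39.8%), and 0 (without NL_OE replicate 1, 14.8%) to 7 (without HL_KO replicate 2, 31%). The 1 in HL_WT against NL_WT, higher (13.3%), became 2 higher with DESeq2 (19.2%) and 1 lower when scaled on the 100 genes (14.5%). It became 3 lower without HL_KO replicate 2 and HL_WT replicate 1 (19.3%), and 2 higher with 1 lower without HL_KO replicate 2 (20.5%), so the direction turned. It was 0 without a count filter, with the stricter filter, with the replicate block, in the compared groups only and with limma (2.18% to 15.2%), and 0 to 3 with 1 library left out. The 0 in HL_KO against NL_KO became 1 with DESeq2 (8.48%) and 1 without those 2 libraries (3.41%), and the 0 in HL_OE against NL_OE became 10 in the compared groups only (21.9%). In NL_KO against NL_WT 1 was called without NL_KO replicate 1 (6.92% of all genes). In HL_KO against HL_WT 1 was called without HL_KO replicate 3 (4.83%). With any other single library left out 0 were called in both, where 0.0905% to 0.161% and 0.171% to 7.12% of all genes were. The numbers do not pair the samples: 9 of 21 same-numbered pairs had a correlation of deviations over 0.1 (range -0.67 to 0.52). The replicate block changed no other count of members by over 1.5 times. The cause of these changes was not tested.

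Over all genes, DESeq2 called 40, 847, 862 and 140 where edgeR called 13 (NL_KO against NL_WT), 360 (HL_KO against HL_WT), 282 (HL_KO against NL_KO) and 33 (HL_OE against NL_OE). In the compared groups only the counts were 5, 0, 0 and 2155, and 5119 in place of 2215 (NL_OE against NL_WT) and 211 in place of 1323 (HL_WT against NL_WT). With the replicate block 153 were called in HL_KO against NL_KO and 11 in HL_OE against NL_OE. In HL_OE against NL_OE limma called 14, 11 and 11. Without HL_KO replicate 2 and HL_WT replicate 1 the counts were 23 in NL_KO against NL_WT, 3953 in NL_OE against NL_WT and 191 in HL_OE against NL_OE. With 1 library left out they ran from 9 to 689 (NL_KO against NL_WT), 17 to 708 (HL_KO against HL_WT), 1082 to 3081 (NL_OE against NL_WT), 2046 to 4195 (HL_OE against HL_WT), 13 to 1187 (HL_KO against NL_KO), 0 to 76 (HL_OE against NL_OE) and 599 to 2042 (HL_WT against NL_WT). The log2 fold change of NO07G02030 in HL_KO against NL_KO ran from -0.079 to 0.46 with 1 library left out (0.12 with all), and changed sign without NL_KO replicate 2.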
